A study of Mus musculus with 8 samples.

Results

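The effect of losing the creatine transporter Slc6a8 was measured in thioglycollate-elicited peritoneal macrophages that had been activated with IFN-gamma. The comparison set 1 RNA sequencing library of Slc6a8-/y cells (KO) against 1 library of wild-type cells (WT), which are 2 of the 8 libraries of the series. Cells came from C57BL/6 mice that had received 1 mL of 4% thioglycollate by intraperitoneal injection 3 to 4 days before collection, and both cultures were then given IFN-gamma at 10 ng/mL for 12 hours. The libraries used beside them were an untreated KO and an untreated WT library of the same elicited cells, a KO and a WT library of bone marrow-derived macrophages given IL-4 at 10 ng/mL for 6 hours after 5 days in 10% M-CSF, and an untreated KO and an untreated WT library of those cells. Every group is 1 library. The knockout was carried by the whole animal, so cells that were not macrophages lacked the gene too. The ages of the mice, and whether the KO libraries came from separate animals, are not given in the sources used here. Genes entered the comparison where they had at least 5 FPKM (the number of fragments scaled to transcript length and to the library's total) in either library, after genes with names starting in Mir or Snor were left out. This kept 7468 of the 18125 genes in the tables of the series, of which 6957 reached 5 FPKM in both libraries, 235 only in the KO library and 276 only in the WT library.

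IFN-gamma is the cytokine of classical macrophage activation. It signals through a receptor bound to Jak1 and Jak2, acts on gamma-activated sites in promoters and induces Irf1, Ciita, guanylate-binding proteins and the antigen presentation genes. Type I interferons signal through a different receptor to a complex that holds Stat2 and Irf9 and binds interferon-stimulated response elements in the promoters of antiviral genes, and Irf7 amplifies their production. Creatine enters cells through Slc6a8 and buffers ATP by way of creatine kinase.

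Because each side is a single library, the values below are sizes without a test. The size is the log2 ratio of FPKM + 1, KO over WT, and a gene is called higher or lower when it differed at least 2-fold, a log2 ratio of 1 or more in size. A fold change on this scale understates the change of genes at low levels. Intervals are exact binomial 95% intervals of the log2 ratio of the expected counts, and cover counting error only, not the variation between cultures or animals. The total expected count was 10986660 in the KO library and 11065427 in the WT library with IFN-gamma, 10940358 in the untreated KO library and 10812678 in the untreated WT library, and 20553654 to 21221526 in the bone marrow-derived libraries. A gene near 5 FPKM rested on a median of 167 counts in the KO library and 172 counts in the WT library. Just inside the 5 FPKM limit lay H2-Q9 with 5.00 FPKM in the KO library and 3.45 FPKM in the WT library, and just outside it Sass6 with 4.99 FPKM in the KO library and 2.25 FPKM in the WT library.

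The deleted gene followed the labels. Slc6a8 (chromosome X) had 0.18 FPKM in the KO library with IFN-gamma, against 39.52 FPKM in the WT library, and 0.73 FPKM in the untreated KO library, against 163.54 FPKM in the untreated WT library. The log2 ratio with IFN-gamma was -5.10, from 8 counts in the KO library and 1753 counts in the WT library, with an interval of -8.98 to -6.78 for the count ratio itself. Macrophage markers were high in both libraries with IFN-gamma. Lyz2, the macrophage lysozyme, had 4277 FPKM in the KO library and 5385 FPKM in the WT library, and Cd68, a lysosomal glycoprotein of macrophages, had 1549 FPKM in the KO library and 1711 FPKM in the WT library. The 7 macrophage markers summed to 6072 FPKM in the KO library and 7426 FPKM in the WT library. Of the markers of other cells, the B cell list summed to 4.17 FPKM in the KO library and 3.84 FPKM in the WT library, the T and NK cell list to 10.3 FPKM in the KO library and 3.82 FPKM in the WT library, and the neutrophil list to 38.1 FPKM in the KO library and 40.4 FPKM in the WT library. The fibroblast and mesothelium list summed to 92.2 FPKM in the KO library and 118 FPKM in the WT library. Within the T and NK cell list Lck had 6.24 FPKM in the KO library and 1.57 FPKM in the WT library, whereas Cd3e had 0 FPKM in the KO library and 0.06 FPKM in the WT library. Among neutrophil genes Camp, Mpo and Elane were at 0 in both libraries. A gene given here at 0 may be one that was not listed for that library. The dendritic cell list summed to 228 FPKM in the KO library and 225 FPKM in the WT library, most of it from the antiviral gene Bst2. In that list Clec9a had 14.1 FPKM in the KO library and 30.7 FPKM in the WT library, and Flt3 and Siglech were at 0 in both. The eosinophil, basophil and mast cell list summed to 12.0 FPKM in the KO library and 7.77 FPKM in the WT library, and the erythroid and platelet list to 115 FPKM in the KO library and 104 FPKM in the WT library. Markers of resident peritoneal macrophages were low, at 21.8 FPKM in the KO library and 24.1 FPKM in the WT library in sum, and the Y-linked genes Ddx3y and Eif2s3y were present in both. The part of these cells in the gene differences below was not tested. In RNA from whole cultures, fewer cells of a type and less RNA per cell cannot be told apart.

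With IFN-gamma, the larger differences in KO macrophages ran mostly upward and were led by antiviral genes. At least 2-fold higher in the KO library were 122 of the 7468 genes (1.63%), and 57 genes (0.763%) were lower by that size. The median log2 ratio over all genes compared was -0.03, and 91.8% of the genes lay within 1.5-fold. The upward lead depended on the size asked for: a 4-fold limit left 27 higher genes and 4 lower genes, while a 1.5-fold limit gave 301 higher genes and 313 lower genes, so that 49.0% of the genes past that limit were higher, against 68.2% of those past 2-fold. The 122 higher genes summed to 7780 FPKM in the KO library and 2452 FPKM in the WT library, and the 57 lower genes to 2055 FPKM in the KO library and 4688 FPKM in the WT library. Among the higher genes 39 reached 5 FPKM only in the KO library, and among the lower genes 23 reached it only in the WT library. Stat2 (log2 ratio 1.00) lay just inside the 2-fold limit and Ptgs2 (0.98) just outside it, and on the lower side Gdf15 (-1.0013) lay just inside and Gpr65 (-0.9977) just outside.

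**Figure D1:**
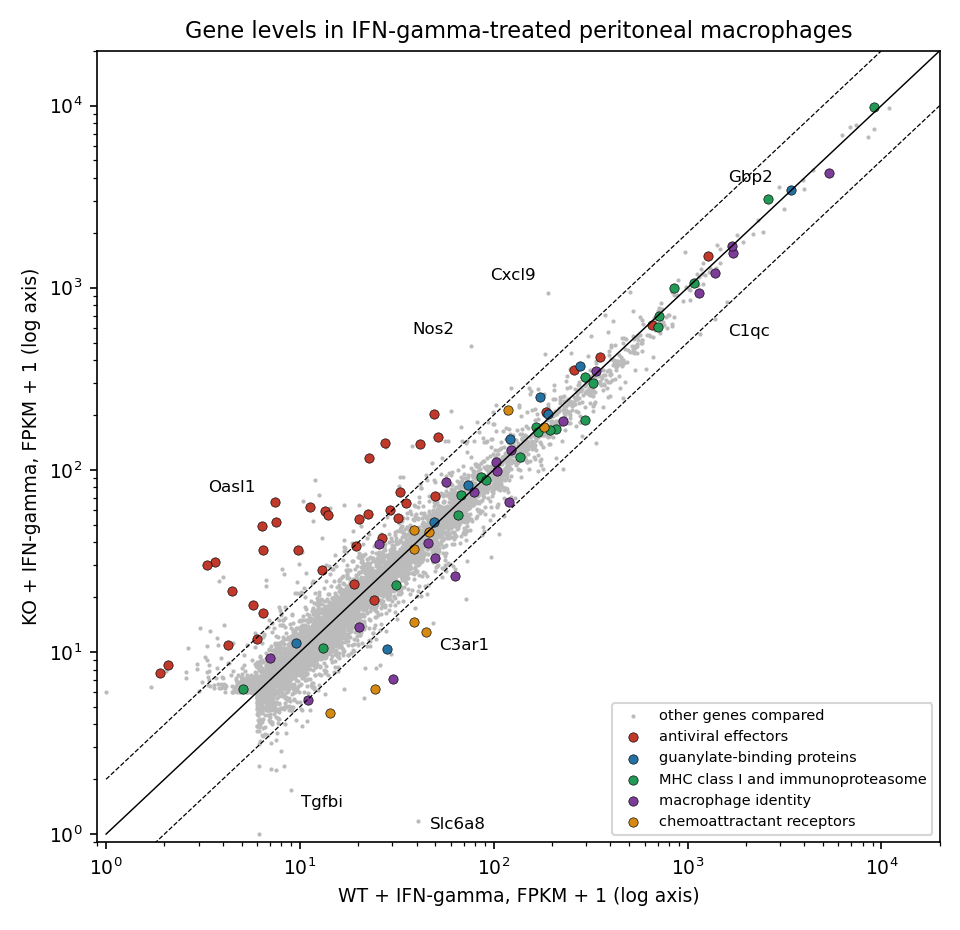
Each point is 1 of the 7468 genes, with its level in the WT library on the x axis and in the KO library on the y axis, both as FPKM + 1 on log axes and both with IFN-gamma. The solid line marks equal levels and the dashed lines 2-fold; most antiviral effectors lie above the upper dashed line, while Gbp2 and the MHC class I genes lie near the solid line and C3ar1 and Tgfbi lie below the lower line.

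Antiviral effectors, the proteins that block viral replication inside cells, gave the largest group. Of 49 listed genes, 39 were compared, 26 were at least 2-fold higher in the KO library and 0 were at least 2-fold lower, with a median log2 ratio of 1.41 beside -0.03 over all genes. Of these 39 members, 37 had a ratio above 0, and 7 reached 5 FPKM in only 1 of both libraries. The list was drawn up with earlier results of these data known, so its count describes these libraries and is not independent evidence.

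Oasl1 (chromosome 5), an oligoadenylate synthetase-like protein that in mice restrains translation of Irf7, had 65.5 FPKM in the KO library and 6.43 FPKM in the WT library with IFN-gamma, and 1.64 FPKM in the untreated KO library and 2.31 FPKM in the untreated WT library. Its log2 ratio was 3.16, with a counting interval of 3.11 to 3.60. Untreated cells of both genotypes were low, and the difference was seen between the treated cultures. Ifit3, a partner of other IFIT proteins in binding foreign RNA, had 30.2 FPKM in the KO library and 2.64 FPKM in the WT library with IFN-gamma (log2 ratio 3.10, interval 3.13 to 3.94), and 0.22 FPKM in the untreated KO library and 0.19 FPKM in the untreated WT library. Ifit1, which captures RNA caps that lack methylation, had 50.7 FPKM in the KO library and 6.55 FPKM in the WT library (2.78, interval 2.73 to 3.18), and 0.41 and 0.35 FPKM in untreated KO and WT cells. Both genes were thus almost silent before treatment in either genotype. Ifit2 stood at a higher level, with 203 FPKM in the KO library and 48.0 FPKM in the WT library with IFN-gamma (2.06, interval 2.01 to 2.15). Rsad2, or viperin, which makes a chain-terminating nucleotide, had 48.4 FPKM in the KO library and 5.36 FPKM in the WT library with IFN-gamma (2.96, interval 2.98 to 3.38). Its levels in untreated cells were 5.33 FPKM in the KO library and 3.69 FPKM in the WT library. The treated WT library was therefore close to both untreated libraries for Rsad2, and only the treated KO library stood apart. Cmpk2, a mitochondrial nucleotide kinase next to Rsad2 in the genome, had 35.4 FPKM in the KO library and 5.42 FPKM in the WT library with IFN-gamma (2.50).

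Isg15, a ubiquitin-like protein that is joined to other proteins during the interferon response, had 140 FPKM in the KO library and 26.5 FPKM in the WT library with IFN-gamma (2.35, interval 2.18 to 2.61), and 6.35 FPKM in the untreated KO library and 2.60 FPKM in the untreated WT library. It was the antiviral member that also differed 2-fold in untreated cells. Usp18, which removes Isg15 from proteins and inhibits the type I interferon receptor, had 66.3 FPKM in the KO library and 9.39 FPKM in the WT library with IFN-gamma (2.70, interval 2.60 to 3.05), and 3.25 and 2.09 FPKM in untreated KO and WT cells. The oligoadenylate synthetases, which make the activator of RNase L, were also higher in the KO library. Oas2 had 20.7 FPKM in the KO library and 3.45 FPKM in the WT library with IFN-gamma (2.29), and Oas3 had 58.2 FPKM in the KO library and 12.4 FPKM in the WT library (2.14). Oasl2 and Oas1a had log2 ratios of 2.36 and 1.21. Mx1, a dynamin-like GTPase that the RefSeq annotation of this genome lists as a transcribed pseudogene, had 29.1 FPKM in the KO library and 2.30 FPKM in the WT library (3.19). Slfn5, Slfn8, Slfn9 and Slfn1 of the Schlafen family had log2 ratios of 1.56, 1.35, 1.37 and 2.01. Not every antiviral gene differed. Ifitm3, which blocks virus entry at membranes, had 1491 FPKM in the KO library and 1270 FPKM in the WT library (0.23), Bst2, which tethers budding virus, had 207 FPKM in the KO library and 186 FPKM in the WT library (0.16), and Samhd1, which depletes nucleotides, had 625 FPKM in the KO library and 652 FPKM in the WT library (-0.06). In both untreated libraries these 3 genes were already at 41.9 FPKM or more.

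Promoter sequence of the genes was set beside these values, because the interferon-stimulated response element and the gamma-activated site are read by different factors. RefSeq promoter windows (GRCm38.p6, 250 bases before to 50 after each gene's start) were available for 6076 of the 7468 genes. They were searched on both strands for an ISRE core, spelled GAAANNGAA (with overlapping matches allowed), and a GAS core, spelled TTCNNNGAA. The stretches shown here run 5′ to 3′ on the gene's strand with matches to the ISRE core in capitals. They are 4 antiviral genes that were at least 4-fold higher in the KO library, the chemokine gene Cxcl9, Gbp2 as an IFN-gamma target of equal level, and Tgfbi as the named protein-coding gene with the lowest log2 ratio after Slc6a8. The Isg15 stretch holds 3 overlapping matches, and the Ifit1 stretch holds 2 that overlap and 1 that stands apart.
Ifit1, chr19:34640775-34640843, plus strand: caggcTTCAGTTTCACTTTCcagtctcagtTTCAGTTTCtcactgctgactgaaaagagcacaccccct
Ifit3, chr19:34583397-34583465, plus strand: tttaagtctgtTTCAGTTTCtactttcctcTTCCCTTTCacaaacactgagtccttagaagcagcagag
Rsad2, chr12:26456533-26456601, minus strand: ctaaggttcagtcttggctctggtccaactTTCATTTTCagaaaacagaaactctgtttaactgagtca
Isg15, chr4:156200846-156200914, minus strand: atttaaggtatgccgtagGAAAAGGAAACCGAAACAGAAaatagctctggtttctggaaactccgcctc
Cxcl9, chr5:92328216-92328284, minus strand: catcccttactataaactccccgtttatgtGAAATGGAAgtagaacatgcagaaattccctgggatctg
Gbp2, chr3:142620575-142620643, plus strand: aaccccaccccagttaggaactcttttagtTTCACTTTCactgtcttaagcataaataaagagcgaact
Tgfbi, chr13:56609362-56609430, plus strand: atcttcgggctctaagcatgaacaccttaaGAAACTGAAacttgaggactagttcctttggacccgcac

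The ISRE core was present in the windows of 21 of the 33 antiviral effectors with a window (63.6%), of 28 of the 93 genes at least 2-fold higher with a window (30.1%) and of 10 of the 39 genes at least 2-fold lower with a window (25.6%). Over all 6076 compared genes with a window the share was 9.07%, and over the 27025 genes of the promoter table it was 9.76%. The core thus was more frequent in windows of the higher and of the lower genes than over all compared genes. It was also in the windows of all 4 guanylate-binding protein genes that had a window, of which the Gbp2 stretch above is an example. The GAS core was in the windows of 9.68% of the higher genes, 7.69% of the lower genes and 8.13% of all compared genes. Within lists it was in the windows of 7 of the 33 antiviral effectors (21.2%), 2 of the 4 guanylate-binding proteins and 5 of the 7 immunity-related GTPases (71.4%) that had a window. Oasl1 and C1qc held neither core in this window. A match describes letters in the window and says nothing of binding.

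Nucleic acid sensors, the proteins that detect viral RNA and DNA, were higher in part. Of 26 listed genes in the tables all 26 were compared, 7 were at least 2-fold higher, 1 was at least 2-fold lower and the median log2 ratio was 0.71. The cytosolic RNA sensors Ddx58 (RIG-I), Ifih1 (MDA5) and their regulator Dhx58 (LGP2) were all in the higher group. Ddx58 had 23.8 FPKM in the KO library and 5.65 FPKM in the WT library with IFN-gamma (1.90, interval 1.90 to 2.26), and 4.75 and 4.45 FPKM in untreated KO and WT cells. Ifih1 had 34.2 FPKM in the KO library and 9.24 FPKM in the WT library (1.78, interval 1.75 to 2.02), and 4.48 and 3.88 FPKM in untreated KO and WT cells. The other 4 higher members were Ifi208, Ifi205, Ifi209 and Ifi213 of the PYHIN family, a cluster of related genes on chromosome 1 whose reads may be split between similar copies. Ifi208 had 24.7 FPKM in the KO library and 3.01 FPKM in the WT library (2.68). Aim2, the DNA sensor of the same family that forms an inflammasome, had 13.6 FPKM in the KO library and 13.9 FPKM in the WT library. The lower member was Tlr13, an endosomal receptor for bacterial ribosomal RNA. It had 8.71 FPKM in the KO library and 28.4 FPKM in the WT library with IFN-gamma (-1.60, interval -1.87 to -1.54), and 96.1 FPKM in untreated KO cells and 81.9 FPKM in untreated WT cells. Among interferon-linked PARPs, enzymes that attach ADP-ribose, all 7 compared members were above 0 and 2 were at least 2-fold higher. Parp14 had 172 FPKM in the KO library and 66.4 FPKM in the WT library (1.36), and Parp12 had 80.1 FPKM in the KO library and 31.5 FPKM in the WT library (1.32).

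The signalling components differed less than these targets. Of 12 interferon receptor and JAK-STAT genes compared, 1 was at least 2-fold higher and the median log2 ratio was 0.07. Stat2, which serves type I and III interferon signalling, had 82.5 FPKM in the KO library and 40.6 FPKM in the WT library (1.00, from 4020 counts in the KO library and 1997 counts in the WT library), and 6.24 and 6.02 FPKM in untreated KO and WT cells. Irf9, its partner, had 26.7 FPKM in the KO library and 19.95 FPKM in the WT library (0.40). The receptor chain Ifngr1 had 24.5 FPKM in the KO library and 35.02 FPKM in the WT library (-0.50), and Ifnar1 had 18.9 FPKM in the KO library and 19.7 FPKM in the WT library (-0.06). Among 10 interferon regulatory factors compared, Irf7 was the 1 member past 2-fold. Irf7 had 133 FPKM in the KO library and 26.8 FPKM in the WT library with IFN-gamma (2.26, interval 2.17 to 2.44), and 3.26 and 4.30 FPKM in untreated KO and WT cells. Irf8, a factor of macrophage identity and activation, had 633 FPKM in the KO library and 590 FPKM in the WT library (0.10). Of the interferon ligands, 3 of the 10 listed genes were in the tables and 0 reached the 5 FPKM limit. Ifnb1, interferon beta, had 0.37 FPKM in the KO library and was at 0 in the WT library with IFN-gamma. The feedback inhibitor Socs1, which blocks JAK kinases, had 99.8 FPKM in the KO library and 90.1 FPKM in the WT library (0.15).

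Several well-known IFN-gamma targets were near equal in both genotypes. Gbp2, a GTPase that attacks the vacuoles of intracellular microbes, had 3428 FPKM in the KO library and 3400 FPKM in the WT library with IFN-gamma (0.01), and 13.0 and 6.53 FPKM in untreated KO and WT cells. Irf1 had 660 FPKM in the KO library and 580 FPKM in the WT library with IFN-gamma (0.19, interval 0.15 to 0.22), and 13.1 and 12.7 FPKM in untreated KO and WT cells. Ciita, the transactivator that switches on MHC class II genes, had 61.6 FPKM in the KO library and 58.9 FPKM in the WT library with IFN-gamma (0.06), and 0.21 FPKM in both untreated libraries. Both treated cultures were thus far above both untreated cultures for these 3 genes, with little distance between genotypes. Of 9 guanylate-binding proteins compared, 0 were at least 2-fold higher, 1 was at least 2-fold lower and the median log2 ratio was 0.17. The lower member, Gbp8, had 9.40 FPKM in the KO library and 27.3 FPKM in the WT library (-1.44, interval -1.75 to -1.33). Of 10 immunity-related GTPases compared, 1 was higher and the median was 0.29. That member, Tgtp1, had 143 FPKM in the KO library and 55.0 FPKM in the WT library (1.36), but its near-identical copy Tgtp2 had 331 FPKM in the KO library and 292 FPKM in the WT library (0.18), and how reads were divided between the copies is uncertain. Of 21 MHC class I and immunoproteasome genes and 9 MHC class II genes compared, 0 passed 2-fold in either direction, with median log2 ratios of -0.05 and -0.17. Among all genes compared, 1.63% passed that limit upward and 0.763% downward. A count of 0 in lists this short, the guanylate-binding proteins included, therefore says little. H2-Aa, a class II chain, had 528 FPKM in the KO library and 530 FPKM in the WT library. Not all class II genes were so close: 6 of the 9 had ratios below 0 and 3 above, and the lowest was H2-DMb2 at -0.92. Cd274, the checkpoint ligand PD-L1, had 354 FPKM in the KO library and 311 FPKM in the WT library (0.19).

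**Figure D2:**
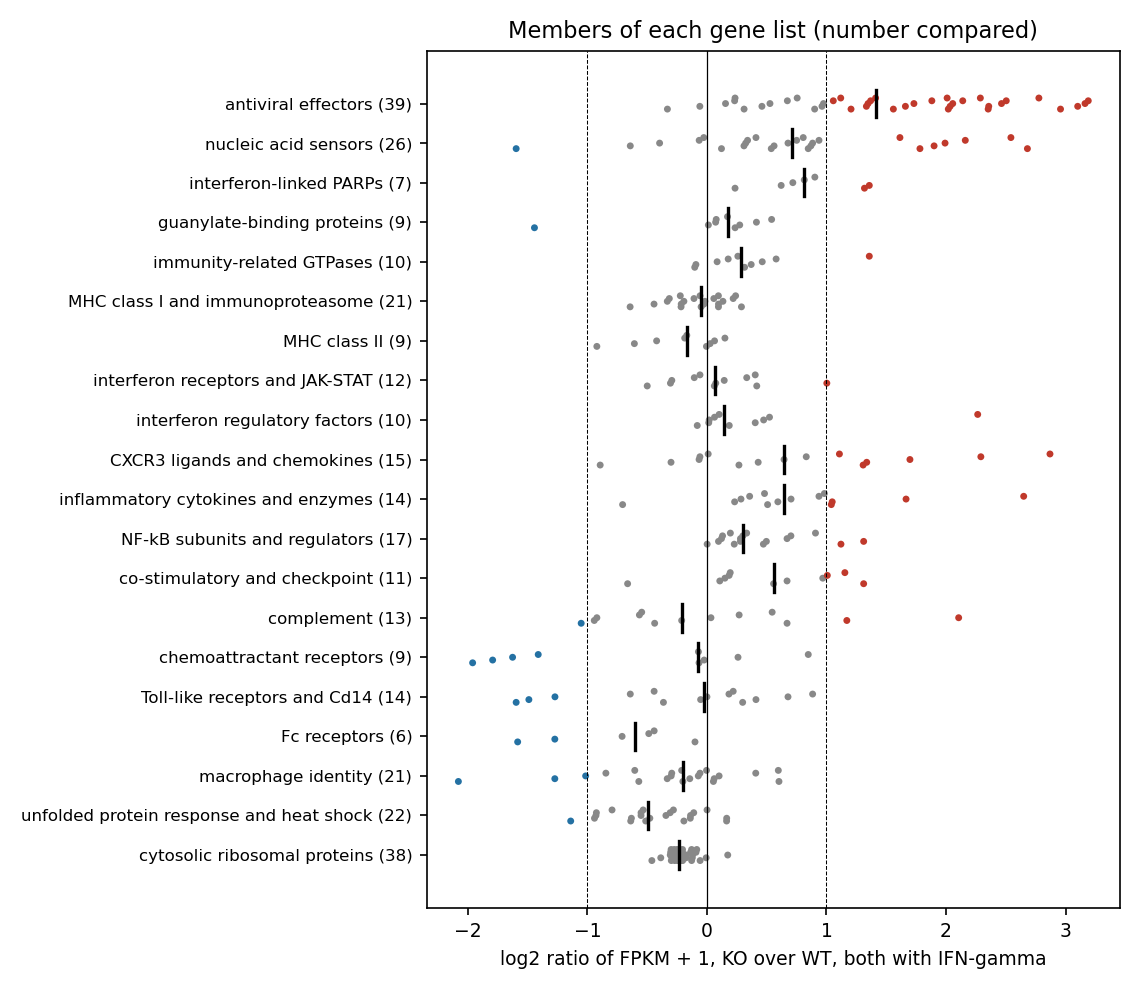
Each dot is 1 gene of a list, placed by its log2 ratio of FPKM + 1, KO over WT with IFN-gamma; the number compared stands after each list's name, black ticks are list medians, and red and blue dots are at least 2-fold higher and lower (dashed lines). The antiviral effectors have a median of 1.41 and the guanylate-binding proteins 0.17, while chemoattractant receptors and Fc receptors hold several blue dots.

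Nos2 and part of the chemokines were higher in KO macrophages. Nos2 (chromosome 11), the inducible nitric oxide synthase of activated mouse macrophages, had 477 FPKM in the KO library and 75.2 FPKM in the WT library with IFN-gamma (2.65, interval 2.62 to 2.72), and 0.64 and 0.22 FPKM in untreated KO and WT cells. Ass1, which regenerates the substrate arginine, had 27.6 FPKM in the KO library and 13.7 FPKM in the WT library (0.97), and Gch1, which makes the cofactor of Nos2, had 28.8 FPKM in the KO library and 14.4 FPKM in the WT library (0.95). Both lay just under 2-fold. The other 7 genes of arginine use compared had ratios between -0.37 and -0.02, so that Nos2 was the 1 of 10 past 2-fold. Of 15 CXCR3 ligands and other chemokines compared, 6 passed 2-fold upward and 0 downward, with a median of 0.65. Cxcl9, which draws T cells through CXCR3, had 937 FPKM in the KO library and 191 FPKM in the WT library with IFN-gamma (2.29, interval 2.26 to 2.34), and 1.67 and 0.39 FPKM in untreated KO and WT cells. Cxcl10, a ligand of the same receptor, had 229 FPKM in the KO library and 190 FPKM in the WT library (0.27, interval 0.19 to 0.35). The CXCR3 ligands thus differed from each other in how far apart the genotypes lay. Ccl5, which attracts T cells and monocytes, had 86.5 FPKM in the KO library and 10.97 FPKM in the WT library (2.87, interval 2.61 to 3.37), and 1.16 and 1.01 FPKM in untreated KO and WT cells. Ccl2, the main monocyte attractant, had 116 FPKM in the KO library and 53.1 FPKM in the WT library (1.11). Ccl7, Cxcl1 and Ccl9 had log2 ratios of 1.34, 1.31 and 1.70, while Ccl3 and Ccl4 had ratios of -0.07 and -0.06 and Ccl6 of -0.89.

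Most inflammatory and NF-kB-linked genes had ratios above 0, and few passed 2-fold. Of 14 inflammatory cytokines and enzymes compared, 4 were at least 2-fold higher, 13 were above 0 and the median was 0.65. Il1rn, the interleukin-1 receptor antagonist, had 63.0 FPKM in the KO library and 19.2 FPKM in the WT library with IFN-gamma (1.67), and 43.6 and 24.8 FPKM in untreated KO and WT cells. Tnf had 80.4 FPKM in the KO library and 56.3 FPKM in the WT library (0.51), and Ptgs2, the inducible cyclooxygenase, had 57.2 FPKM in the KO library and 28.5 FPKM in the WT library (0.98). All 17 NF-kB subunits and regulators compared were above 0, with a median of 0.30, but only Cd40 and Traf1 passed 2-fold. Cd40, a co-stimulatory receptor on antigen-presenting cells, had 143 FPKM in the KO library and 57.2 FPKM in the WT library (1.31, interval 1.22 to 1.43), and 0.33 and 0.41 FPKM in untreated KO and WT cells. Of 11 co-stimulatory and checkpoint genes compared, 3 passed 2-fold, namely Cd40, the lymphocyte activation marker Cd69 (1.15) and the T cell ligand Cd80 (1.01). Icam1 and Vcam1, which bind leukocyte integrins, had ratios of 0.67 and 1.69. Clec4e (Mincle), a receptor for mycobacterial glycolipid, had 63.3 FPKM in the KO library and 15.9 FPKM in the WT library with IFN-gamma (1.93), and 5.43 and 6.52 FPKM in untreated KO and WT cells. Acod1, which makes itaconate, had 275 FPKM in the KO library and 169 FPKM in the WT library (0.70), and Cybb, the catalytic subunit of the phagocyte NADPH oxidase, had 711 FPKM in the KO library and 374 FPKM in the WT library (0.92), both under 2-fold.

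Some further higher genes had high levels. Slc2a6, a hexose transporter of the lysosome, had 208 FPKM in the KO library and 59.4 FPKM in the WT library with IFN-gamma (1.79), and F10, coagulation factor X, had 431 FPKM in the KO library and 182 FPKM in the WT library (1.23). Procr, the endothelial protein C receptor, had 135 FPKM in the KO library and 36.8 FPKM in the WT library (1.85). Serpinb2, an inhibitor of plasminogen activators, had a ratio of 2.16. Trex1, an exonuclease that clears cytosolic DNA, had 207 FPKM in the KO library and 98.2 FPKM in the WT library (1.07). Axl, a receptor tyrosine kinase that takes up dying cells, had 226 FPKM in the KO library and 102 FPKM in the WT library (1.14), while its relative Mertk had 84.98 FPKM in the KO library and 55.8 FPKM in the WT library (0.60).

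**Figure D3:**
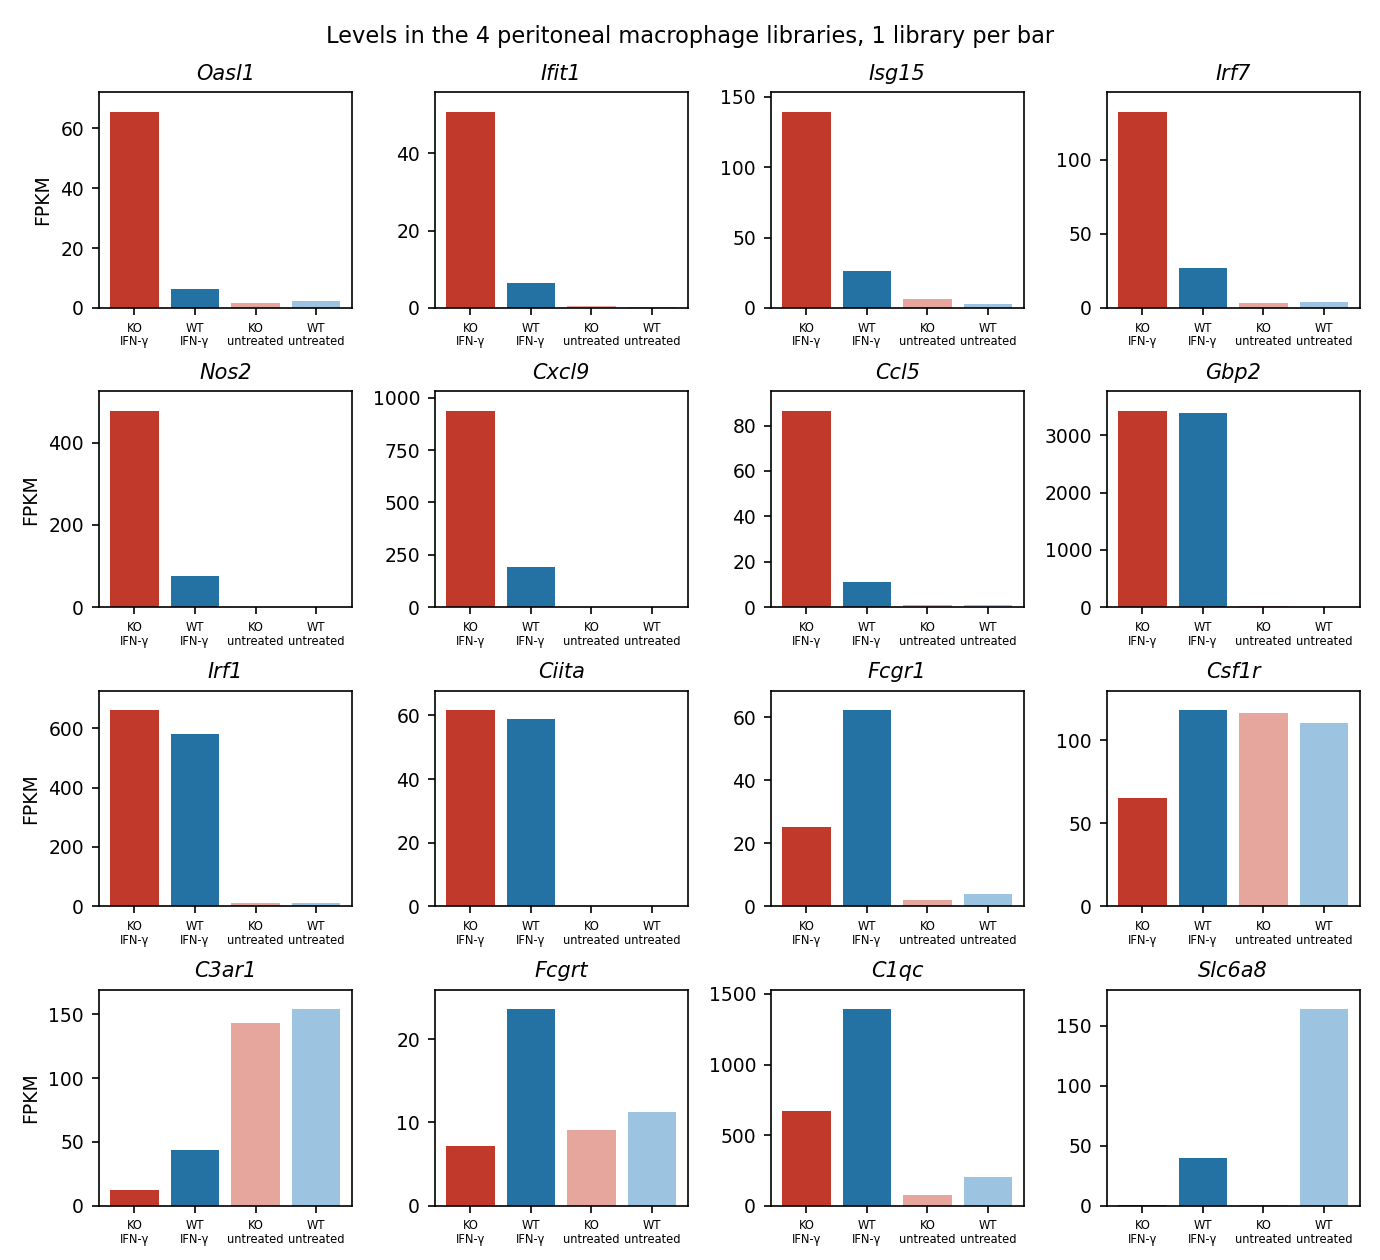
Bars give the FPKM of 16 genes in the 4 peritoneal libraries, 1 library per bar, with KO left of WT for cells with IFN-gamma and then for untreated cells; each panel has its own y axis from 0. Oasl1, Ifit1, Isg15, Irf7, Nos2, Cxcl9 and Ccl5 stand highest in the KO library with IFN-gamma, Gbp2, Irf1 and Ciita reach similar levels in both libraries with IFN-gamma, and Csf1r, C3ar1 and Fcgrt are lowest in the KO library with IFN-gamma.

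The genes that were lower in the KO library with IFN-gamma held chemoattractant receptors, Fc receptors, Toll-like receptors and genes of macrophage identity. Csf1r, the receptor for the macrophage growth factor M-CSF, had a ratio below 0 but did not reach the 2-fold limit. Csf1r had 65.4 FPKM in the KO library and 118 FPKM in the WT library with IFN-gamma (-0.85, interval -0.92 to -0.79). In untreated KO and WT cells it had 117 and 110 FPKM. The treated KO library was the low one, and the other 3 peritoneal libraries lay close together. Over the macrophage identity list, 3 of 21 compared genes were at least 2-fold lower, 0 were at least 2-fold higher and the median was -0.20. Among the lower members were Fcgr1, given below, and Aif1, an actin-binding protein with 4.48 FPKM in the KO library and 10.1 FPKM in the WT library. Spi1 (PU.1), the factor that sets myeloid fate, had 348 FPKM in the KO library and 335 FPKM in the WT library (0.05).

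Of 9 chemoattractant receptors compared, 4 were at least 2-fold lower and 0 at least 2-fold higher, with a median of -0.07. Ccr1, a receptor for Ccl5, had 3.65 FPKM in the KO library and 13.4 FPKM in the WT library (-1.63, interval -2.18 to -1.57), and 19.3 and 15.2 FPKM in untreated KO and WT cells. C3ar1, the receptor for complement fragment C3a, had 11.9 FPKM in the KO library and 43.8 FPKM in the WT library with IFN-gamma (-1.79, interval -2.01 to -1.74), and 143 and 154 FPKM in untreated KO and WT cells. For C3ar1 both treated libraries lay below both untreated ones, the KO library further. P2ry6, a receptor for uridine nucleotides, had a ratio of -1.41. Cxcr4 and Ptafr, by contrast, had ratios of -0.07 each.

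Fc receptors, which bind the constant part of antibodies, were below 0 for all 6 genes compared, with a median of -0.60, and 2 were at least 2-fold lower. Fcgr1, the high-affinity receptor for IgG, had 25.2 FPKM in the KO library and 62.3 FPKM in the WT library with IFN-gamma (-1.27, interval -1.43 to -1.18), and 1.94 and 3.95 FPKM in untreated KO and WT cells. Fcgrt, which recycles IgG, had 7.21 FPKM in the KO library and 23.6 FPKM in the WT library (-1.58, from 137 counts in the KO library and 452 counts in the WT library), and 9.14 and 11.2 FPKM in untreated KO and WT cells. Fcgr1 is an IFN-gamma target, and it was the 1 gene at least 2-fold lower among the 22 IFN-gamma markers without antiviral role that were compared; 3 of those were at least 2-fold higher (Cxcl9, Clic5 and Vcam1) and their median was 0.26. Of 14 Toll-like receptor genes and cofactors compared, 3 were at least 2-fold lower and 0 higher. They were Tlr13, given above, the RNA receptor Tlr8 with 1.86 FPKM in the KO library and 7.03 FPKM in the WT library (-1.49), and Ly86 (MD-1), a cofactor of the Cd180 receptor, with 139 FPKM in the KO library and 338 FPKM in the WT library (-1.27). Tlr7, also an RNA receptor, was 0.88 on the same scale, and Tlr4 was -0.44.

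Complement genes were split. Cfb, factor B of the alternative pathway, had 60.6 FPKM in the KO library and 13.3 FPKM in the WT library with IFN-gamma (2.11, interval 2.03 to 2.34), and 1.32 and 1.07 FPKM in untreated KO and WT cells. C3, the central component, had 183 FPKM in the KO library and 80.8 FPKM in the WT library (1.17, interval 1.13 to 1.23). The 3 chains of C1q, which starts the classical pathway, had ratios below 0, and C1qc passed 2-fold. C1qc had 670 FPKM in the KO library and 1391 FPKM in the WT library with IFN-gamma (-1.05), C1qb had 829 FPKM in the KO library and 1594 FPKM in the WT library (-0.94), and C1qa had 246 FPKM in the KO library and 466 FPKM in the WT library (-0.92). In untreated cells C1qc had 77.5 FPKM in the KO library and 207 FPKM in the WT library, so that the genotype difference of C1qc was present without IFN-gamma too. Over the complement list, 2 of 13 compared genes were at least 2-fold higher, 1 was at least 2-fold lower and the median was -0.21. In untreated peritoneal cells 3 of the same 13 genes were at least 2-fold lower in the KO library and 0 higher. Their median there was -0.125, and 0.187% of all genes compared were lower by that size.

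Further genes at least 2-fold lower included Alox5ap, Tbxas1, Fabp4, Fabp5, Tgfbi and Pld4. Alox5ap, which presents arachidonic acid to 5-lipoxygenase, had 32.4 FPKM in the KO library and 96.3 FPKM in the WT library with IFN-gamma (-1.54), and Tbxas1, thromboxane synthase, had 54.4 FPKM in the KO library and 112 FPKM in the WT library (-1.03). The fatty acid binding proteins Fabp4 and Fabp5 had ratios of -1.27 and -1.06, with Fabp5 at 557 FPKM in the KO library and 1160 FPKM in the WT library. Tgfbi, an extracellular matrix protein, had 0.75 FPKM in the KO library and 7.97 FPKM in the WT library (-2.36, interval -4.12 to -2.79), from 22 counts in the KO library and 237 counts in the WT library. Pld4, an endolysosomal exonuclease, had 18.6 FPKM in the KO library and 70.5 FPKM in the WT library (-1.87). Of 22 unfolded protein response and heat shock genes compared, 1 was at least 2-fold lower and 0 higher, 3 were above 0 and the median was -0.49. The 1 was Sdf2l1, an endoplasmic reticulum chaperone cofactor, with 27.6 FPKM in the KO library and 61.9 FPKM in the WT library (-1.14, interval -1.36 to -0.98). Hspa5 (BiP), the main chaperone of that compartment, had 249 FPKM in the KO library and 387 FPKM in the WT library (-0.63).

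Energy metabolism and general housekeeping lists showed small differences. Of the 25 tricarboxylic acid cycle genes compared 1 passed 2-fold, Idh1, the cytosolic isocitrate dehydrogenase, with 19.9 FPKM in the KO library and 44.3 FPKM in the WT library (-1.12). The lists of oxidative phosphorylation (median -0.15), glycolysis and HIF targets (0.01), NRF2 targets (0.07), ATF4 targets (-0.13), cytosolic ribosomal proteins (-0.23) and SWI/SNF subunits (0.00) held 0 genes past 2-fold. Among all genes compared, only 1.63% passed that limit upward and 0.763% downward, so 0 in lists of this length says little. Though small, the ratios were below 0 for 37 of 38 cytosolic ribosomal proteins and 29 of 33 oxidative phosphorylation genes. The median over all genes compared was -0.03, and the share of them below 0 was not computed. Untreated peritoneal cells showed the same shift. There 0 of the 38 ribosomal proteins were above 0 (median -0.21), and 5 of the 33 oxidative phosphorylation genes (median -0.13). Glycolysis and HIF targets were mixed, with 11 above 0 and 10 below. Of the creatine genes, Gatm, which starts creatine synthesis from arginine and glycine, had 26.2 FPKM in the KO library and 37.4 FPKM in the WT library with IFN-gamma (-0.50), and 10.2 and 6.97 FPKM in untreated KO and WT cells. Ckb, the cytosolic creatine kinase, had 11.7 FPKM in the KO library and 10.5 FPKM in the WT library (0.14), and 136 and 104 FPKM in untreated KO and WT cells. Gamt, which completes creatine synthesis, stayed under the 5 FPKM limit with 3.10 FPKM in the KO library and 4.43 FPKM in the WT library. The lists of osmolyte transport, matrix genes, cholesterol efflux, iron handling, NADPH oxidase, inflammasome and Ms4a genes also held 0 genes past 2-fold, with medians from -0.17 to 0.18. Targets of IL-4, the opposing cytokine, held 0 of 14 compared genes past 2-fold, with a median of 0.09.

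Over the same 7468 genes, fewer passed 2-fold in the other pairs. In untreated peritoneal macrophages 9 genes (0.121%) were at least 2-fold higher in the KO library and 14 (0.187%) at least 2-fold lower. In untreated bone marrow-derived macrophages 1 gene (0.0134%) was at least 2-fold higher and 7 (0.0937%) lower, and with IL-4 in these cells 23 genes (0.308%) were at least 2-fold higher and 7 (0.0937%) lower. These counts differ in size only, and the difference between pairs was not tested. The gene set was chosen for its level in the IFN-gamma libraries, and 1 library a group gives no spread against which to set it. Genes of this set that were low in the other libraries could hardly pass 2-fold there on FPKM + 1. The bone marrow-derived libraries also held more counts in total. Smaller numbers of genes past 2-fold are thus partly built in, and do not show that KO and WT lay closer.

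The 122 genes higher in the KO library with IFN-gamma had a median log2 ratio, KO over WT, of 0.11 in untreated peritoneal cells, 0.34 in bone marrow-derived cells with IL-4 and -0.0013 in untreated bone marrow-derived cells, where the medians over all genes compared were 0.02, 0.02 and 0.00. In untreated peritoneal cells 85 of the 122 (69.7%) were above 0, beside 54.4% of all genes compared, and 4 were at least 2-fold higher. With IL-4 92 (75.4%) were above 0, beside 55.8% of all genes, and 17 were at least 2-fold higher. In untreated bone marrow-derived cells 58 (47.5%) were above 0, beside 51.0% of all genes, and 1 was at least 2-fold higher. The 57 lower genes had medians of -0.36 in untreated peritoneal cells, -0.03 with IL-4 and -0.04 in untreated bone marrow-derived cells. In untreated peritoneal cells 48 of the 57 (84.2%) were below 0, beside 45.2% of all genes compared. With IL-4 34 (59.6%) were below 0, beside 43.5% of all genes, and in untreated bone marrow-derived cells 30 (52.6%) were, beside 48.3% of all genes. In untreated bone marrow-derived cells both shares lay close to those of all genes.

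Of the interferon-linked lists, the 39 antiviral effectors had a median of 0.08 in untreated peritoneal cells, with 1 at least 2-fold higher, and of 0.02 in untreated bone marrow-derived cells, with 0 at least 2-fold higher. With IL-4 in bone marrow-derived cells, which were a different macrophage type given a different cytokine for a shorter time, the median was 0.76, 37 members were above 0 and 13 were at least 2-fold higher. Other interferon-linked lists were above 0 in that pair as well. All 10 immunity-related GTPases were above 0 with a median of 0.73, beside 0.29 in the IFN-gamma pair, and all 7 PARPs with a median of 0.61, beside 0.81. For the guanylate-binding proteins 8 of 9 were above 0 with a median of 0.43, beside 0.17 in the IFN-gamma pair. In the IL-4 pair Ifit2 had a log2 ratio of 1.62, Ifit3 of 1.54, Isg15 of 1.53 and Ifit1 of 1.23. Nos2 and Cxcl9 had ratios of 0.00 and -0.02 there. The chemokine list had a median of -0.07 and the inflammatory list of -0.01 in the IL-4 pair. Neither held a gene at least 2-fold higher, beside 0.308% of all genes compared. On FPKM + 1, a ratio near 0 can also come from low levels in both libraries of a pair. Such ratios in the other pairs therefore do not show equal expression.

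**Figure D4:**
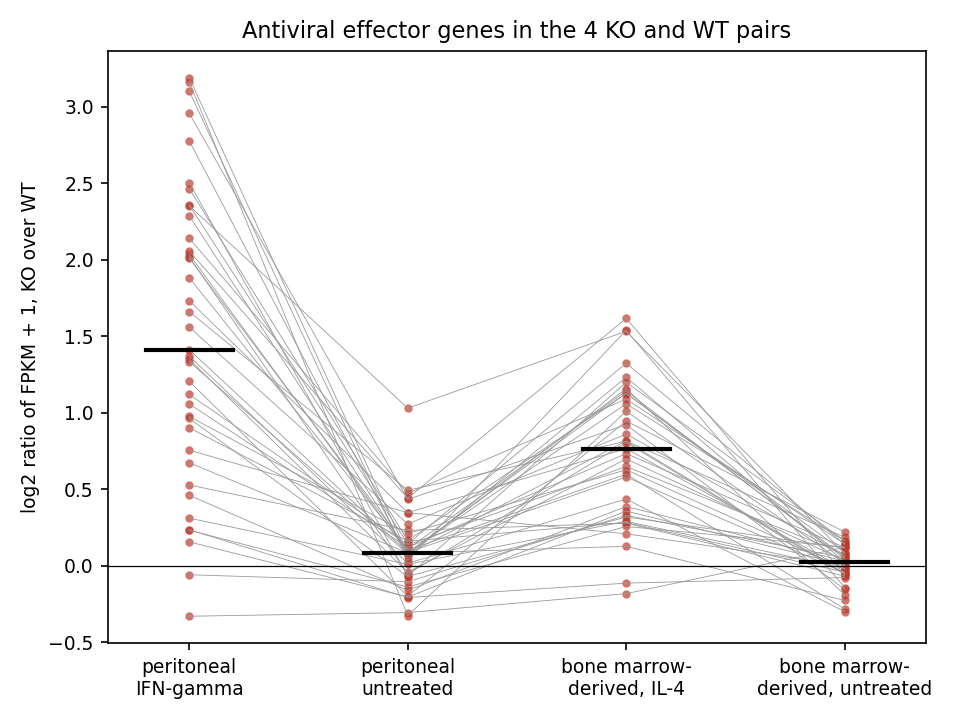
Each line is 1 of the 39 antiviral effectors, followed through its log2 ratio of FPKM + 1, KO over WT, in the 4 pairs of libraries; bars are medians. The medians are 1.41 in peritoneal macrophages with IFN-gamma, 0.08 in untreated peritoneal macrophages, 0.76 in bone marrow-derived macrophages with IL-4 and 0.02 in untreated bone marrow-derived macrophages.

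Set against the untreated library of the same genotype, 103 of the 122 higher genes were at least 2-fold above it and 1 at least 2-fold below it in KO cells, and 68 were at least 2-fold above it and 7 at least 2-fold below it in WT cells. Of the 57 lower genes, 7 were at least 2-fold above the untreated library and 23 at least 2-fold below it in KO cells, and 16 were at least 2-fold above it and 14 at least 2-fold below it in WT cells. These counts share the treated libraries with the choice of the genes and are given as levels only. The higher genes were chosen for a high value in the treated KO library, and 39 of the 122 reached 5 FPKM only there. The 103 beside 68 therefore cannot be read as a stronger response of KO cells. The share of all genes compared that passed these limits was not computed.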

How the data were processed

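The data are RNA sequencing libraries of mouse macrophages, 1 for each of 8 groups. Per the submitters' processing notes, Bowtie2 2.2.5 and RSEM were used with the mm10 build, with a version of RSEM not given in the sources used here. Each deposited table gives an expected count per gene, estimated by the authors, and an FPKM value, per the file headers. Its values were used without further scaling between libraries. Entrez identifiers were named with the RefSeq GRCm38.p6 table (18076 of 18125; 42 kept the name in the files and 7 have none), and a gene not listed in a table was set to 0.

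Levels were compared as log2 ratios of FPKM + 1 over genes with at least 5 FPKM in either library, without a test, since each group holds 1 library. At the floor, 35 small RNA genes were left out. Counting intervals are exact binomial intervals on expected counts. The 47 gene lists and 10 marker lists, and the genes named, were chosen with earlier results of these data known. Named genes are the creatine list, the 20 highest and 20 lowest protein-coding log2 ratios, the 15 largest FPKM differences past 2-fold in each direction, up to 6 members per list by absolute ratio, and members whose role a sentence needs; genes outside this rule were named after their values were seen. Promoter windows came from RefSeq. Expected counts were rounded to whole numbers for the alternative scalings with edgeR 4.0.16 (TMM) and DESeq2 1.42.0 (size factors) in R 4.3.3. Other steps used pandas 2.3.3, numpy 2.4.6, matplotlib 3.10.9 and scipy 1.17.1 under Python 3.11.15. The size rule was also run on simulated counts with planted changes. That simulation held counting error only, so it says nothing of variation between cultures or animals.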

Additional observations from a re-analysis of the deposited data

Results flagged for a closer look

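Pnp2, a purine nucleoside phosphorylase gene with a near-identical copy beside it, was put up for a closer look because its KO over WT difference ran in opposite directions in the treated and the untreated peritoneal pair. With IFN-gamma it had 5.00 FPKM in the KO library and was at 0 in the WT library. In untreated cells it was at 0 in the KO library and had 1.26 FPKM in the WT library, a log2 ratio of -1.18. The difference between the pairs was not tested, and reads may be divided unevenly between the copies.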

How the results depend on the processing

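No paired analysis was possible because every group holds 1 library. The 122 genes at least 2-fold higher and 57 lower in KO cells with IFN-gamma became 70 higher and 27 lower with a pseudocount of 5 FPKM, 79 and 35 over genes with at least 20 FPKM, 48 and 15 at a 3-fold limit, and 301 and 313 at a 1.5-fold limit. Under the other 9 settings of 13 the counts stayed within 1.5 times, at 105 to 152 higher and 47 to 85 lower. With expected counts and TMM scaling all 122 higher genes and 54 of the lower genes were shared, and with DESeq2 size factors 122 and 56. The Slc6a8 log2 ratio was -7.14 and -3.10 with pseudocounts of 0.1 and 5 FPKM, -6.51 with TMM scaling and -6.60 with DESeq2 size factors. Of 1440 values for 288 other named genes over 5 settings, 88 moved beyond counting error, 0 genes past 2-fold changed sign, and 1 value near 0 did (Pias1, -0.02 as reported and 0.01 after rescaling). Of 322 list medians over 7 settings, 1 moved beyond the spread of its members and 12 of 8 lists changed sign, all of them at most 0.17 in size as reported. With a limit of 1 FPKM the median became 0.11 for osmolyte transport and 0.01 for iron handling and matrix genes. That setting kept each gene's ratio and only added members at lower levels. The lists grew from 5 to 8, from 8 to 13 and from 17 to 25 members. Of the 93 named genes past 2-fold, 74 stayed past it in all 5 settings. A limit throughout is that 1 library a group gives no replicate error; near 5 FPKM, counting error adds to it.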

Other observations

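Some gene groups outside the main themes also held members past 2-fold in KO macrophages with IFN-gamma. In the TGF-beta family, Lrrc32 (GARP), which anchors latent TGF-beta on the cell surface, had 12.0 FPKM in the KO library and 2.44 FPKM in the WT library (log2 ratio 1.92), whereas Tgfbi and Gdf15 were lower, and the median of the 18 genes compared was -0.10. Among integrins, Itgb5 had 16.4 FPKM in the KO library and 38.2 FPKM in the WT library (-1.17). Itgal, the chain that pairs with Itgb2 to bind Icam1, lay just under 2-fold. Itgal had 143 FPKM in the KO library and 72.1 FPKM in the WT library (0.98). Ccnd2, cyclin D2, had 6.73 FPKM in the KO library and 1.58 FPKM in the WT library (1.58), and Klf4, a transcription factor of myeloid differentiation, had 7.17 FPKM in the KO library and 2.74 FPKM in the WT library (1.13).

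Slc6a12, which carries betaine and GABA and belongs to the same transporter family as Slc6a8, stayed under the 5 FPKM limit with 4.75 FPKM in the KO library and 0.56 FPKM in the WT library with IFN-gamma. In untreated peritoneal macrophages it had 31.6 FPKM in the KO library and 7.63 FPKM in the WT library, so that it was higher in KO cells in both treatments. This gene was noticed after its values were seen and has no replicate check.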
